A study of Schmidtea mediterranea with 5 samples.

Results

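Of 68301 transcripts measured in all 5 libraries, 4 were lower in irradiated than in control animals, were not raised in either sorted cell fraction and stayed within 2-fold of control after *mex3-1* knockdown. They are SmedASXL_064188, SmedASXL_011160, SmedASXL_061342 and SmedASXL_060003, named as in the SmedASXL transcriptome, and neither the deposited tables nor the study's supplementary lists pair a gene name with any of them. The 4 were chosen by their measured levels. Each had to be at least 2-fold higher in *control(RNAi)* than in irradiated animals, less than 2-fold higher in X1 and in X2 than in irradiated animals, and between 0.5 and 2 times its control level in *mex3-1(RNAi)* animals. At least 1 CPM (mapped reads scaled to a common library total of 1000000) in control animals was also asked for, and transcripts on the study's lists of known stem cell, known X2 and new epithelial progenitor genes were to be left out, but no transcript that met the folds was on those lists. Folds are ratios of CPM + 1, so changes of transcripts near 0 are understated. All 5 libraries entered this choice, so the values below describe the 4 transcripts and test nothing about them.

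All libraries came from *Schmidtea mediterranea* of the asexual CIW4 strain, with 1 library per group. The X1 and X2 libraries were made from dissociated cells sorted by Hoechst fluorescence, and the irradiated library from whole animals 7 days after 60 Gy of γ-irradiation. The *control(RNAi)* and *mex3-1(RNAi)* libraries came from whole animals at day 12 after 1 feed of double-stranded RNA by the sample titles (a protocol in the labels describes more feeds), against the *C. elegans* sequence *unc22* in the controls, and each was an equal pool of 3 RNA preparations. The X2 cells were pooled from many animals. Depth ran from 60528509 to 69835694 mapped reads. With no replicates, the spread between animals is unknown, and the 95% intervals given here (exact Poisson for a level, exact Clopper-Pearson for a fold) cover counting error only.

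Planarian neoblasts are the adult stem cells of the flatworm and its only dividing somatic cells. Irradiation removes them first and their postmitotic progeny in the days that follow, so transcripts that fall after irradiation are commonly read as belonging to the stem cells or to cells that need constant replacement. Cell sorting separates a fraction of cycling cells (X1), most of them neoblasts, from a fraction rich in early progeny (X2). MEX3 proteins are RNA-binding proteins with KH domains, first known from cell fate decisions in the *C. elegans* embryo.

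Known genes followed their labels. The neoblast marker *piwi-1* stood at 3697 CPM in X1, 934 in X2, 308 in control and 3.21 in irradiated animals. The early progeny marker *prog-1* was highest in X2, at 2156 CPM, and the later progeny marker *AGAT-1* fell from 224 CPM in control to 20.9 in irradiated animals. The targeted gene *mex3-1* stood at 144 CPM in *control(RNAi)* and 23.4 CPM in *mex3-1(RNAi)* animals. The X1, X2 and irradiated libraries were multiplexed together, whereas the high values of the 4 transcripts all come from the RNAi libraries. The loss after irradiation and a difference between these sets of libraries, or between RNAi-fed and other animals, cannot be told apart for them. In whole animals, fewer cells of a type and less RNA per cell cannot be told apart either. In the opposite direction, 90 transcripts were at least 2-fold higher in irradiated than in control animals, and 66 of these had *mex3-1(RNAi)* levels between 0.5 and 2 times control. No share over all transcripts stands beside the 66.

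The 4 transcripts are what remains at the end of a series of steps. Control animals exceeded irradiated animals at least 2-fold for 633 transcripts, the 4 among them by the choice itself, which is 3.29% of the 19254 that reached 1 CPM in 1 of the 2 libraries or in both. For 549 of the 633 (86.7%), X1 or X2 exceeded irradiated animals by 2-fold or more, and for 509 both did. This left 84 outside both fractions. Among the 84, 79 fell to no more than 0.5 of control in *mex3-1(RNAi)* animals, 1 rose at least 2-fold and 4 lay between. The 4 are thus 4.76% of the transcripts outside X1 and X2, whereas 475 of the 549 inside lay between the same bounds. The share of all transcripts between these bounds was not counted. Over all transcripts tested, 1.96% were at least 1.5-fold lower in *mex3-1(RNAi)* than in control animals, so falls past the lower bound were rare. Within the 84, the values left a gap around the lower bound of -1 on the log2 scale. The least reduced of the 79 had a log2 fold of -1.22, and the most reduced of the 4 had -0.42. The gap depends on the control over irradiated threshold. Just below that threshold, SmedASXL_015794 at -0.95 and SmedASXL_018771 at -0.85 met the other conditions and lay inside the gap. The 1 transcript that rose, SmedASXL_020150, is named after its values were seen. It had no reads in X1 or X2, 2 reads in irradiated animals, 80 in control and 458 in *mex3-1(RNAi)* animals.

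**Figure D1:**
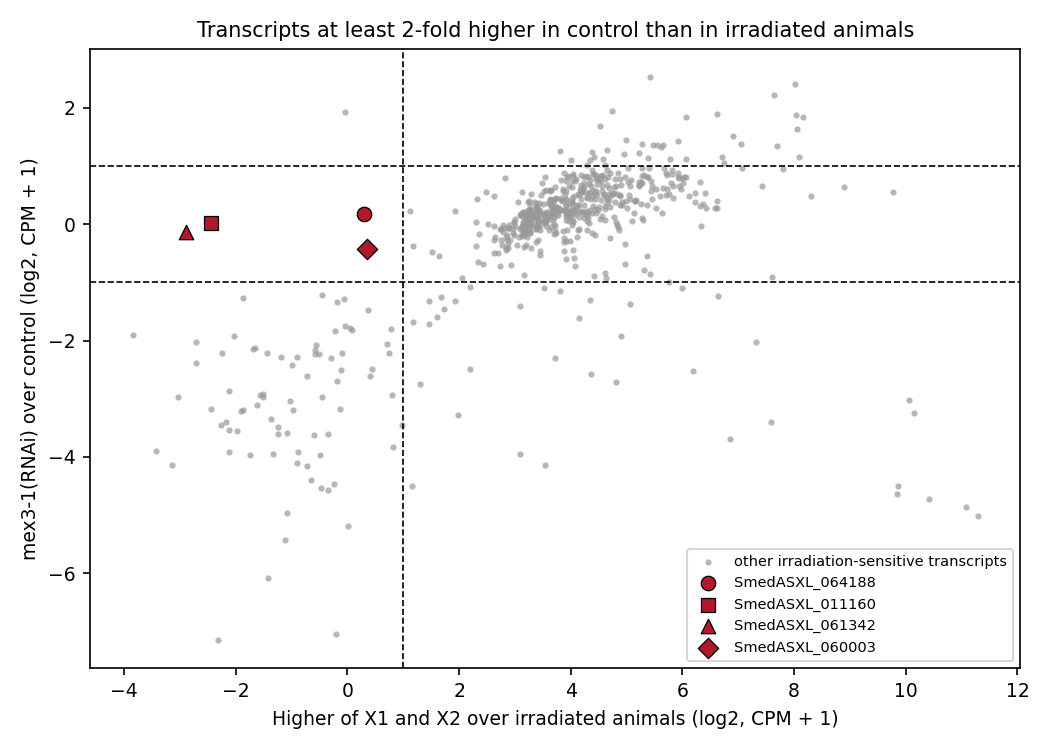
The 633 transcripts at least 2-fold higher in control than in irradiated animals, with the higher of X1 and X2 over irradiated animals (log2 of CPM + 1, x axis) and *mex3-1(RNAi)* over control (log2 of CPM + 1, y axis). Each point is 1 transcript, dashed lines mark 2-fold, and the 4 red symbols are alone in the space to the left between the horizontal lines, above the 79 transcripts that fell with *mex3-1* knockdown.

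SmedASXL_064188 had the largest difference between control and irradiated animals. It was measured at 1.13 CPM (73 reads) in X1, 2.54 CPM (154 reads) in X2, 1.90 CPM (133 reads) in irradiated animals, 15.1 CPM (1038 reads) in control and 17.2 CPM (1089 reads) in *mex3-1(RNAi)* animals. Both RNAi libraries were high, and the other 3 were low, from 1.13 CPM in X1 to 2.54 CPM in X2. Control exceeded irradiated animals 5.53-fold (interval 4.87 to 6.27), and 12.6% of its control level in CPM was left after irradiation. *mex3-1(RNAi)* was 1.13 times control (1.05 to 1.23), a difference in counting terms but a small one. Among the 84 transcripts outside the fractions it ranked 21 by control over irradiated.

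SmedASXL_011160 was measured at 0 reads in X1, 0.165 CPM (10 reads) in X2, 5.36 CPM (374 reads) in irradiated animals, 15.8 CPM (1091 reads) in control and 16.2 CPM (1023 reads) in *mex3-1(RNAi)* animals. The sorted fractions were thus almost without reads, while irradiated animals kept a clear level. A count of 0 in X1 allows up to 3 reads, or 0.0463 CPM. The measured CPM was about 116 times that limit in irradiated animals and about 342 times in control animals, with counting error of these levels left out. Control exceeded irradiated animals 2.65-fold (2.39 to 2.94), which left 33.8% of the control CPM. The fold of *mex3-1(RNAi)* over control was 1.02, and its interval of 0.94 to 1.11 includes no difference.

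SmedASXL_061342 was likewise almost without reads in the sorted fractions. It was measured at 0.0154 CPM (1 read) in X1, 0.0330 CPM (2 reads) in X2, 6.67 CPM (466 reads) in irradiated animals, 15.9 CPM (1096 reads) in control and 14.5 CPM (915 reads) in *mex3-1(RNAi)* animals. Its level in irradiated animals was the highest of the 4, and 41.9% of the control CPM was left there. On the log2 scale, control exceeded irradiated animals by 1.14, with an interval of 0.999 to 1.28 whose lower bound is just under the threshold of 1. *mex3-1(RNAi)* stood at 0.92 of control (0.84 to 0.995).

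SmedASXL_060003 was the weakest of the 4. It was measured at 0.170 CPM (11 reads) in X1, 1.73 CPM (105 reads) in X2, 1.15 CPM (80 reads) in irradiated animals, 3.46 CPM (238 reads) in control and 2.33 CPM (147 reads) in *mex3-1(RNAi)* animals. Only the X1 level stood far from the rest, and the X2 level reached 0.61 of control on the CPM + 1 scale. Control exceeded irradiated animals 2.08-fold with an interval of 1.77 to 2.42, so the reads do not settle on which side of the threshold it lies. It was also the most reduced by *mex3-1* knockdown, at 0.75 of control (0.64 to 0.87).

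**Figure D2:**
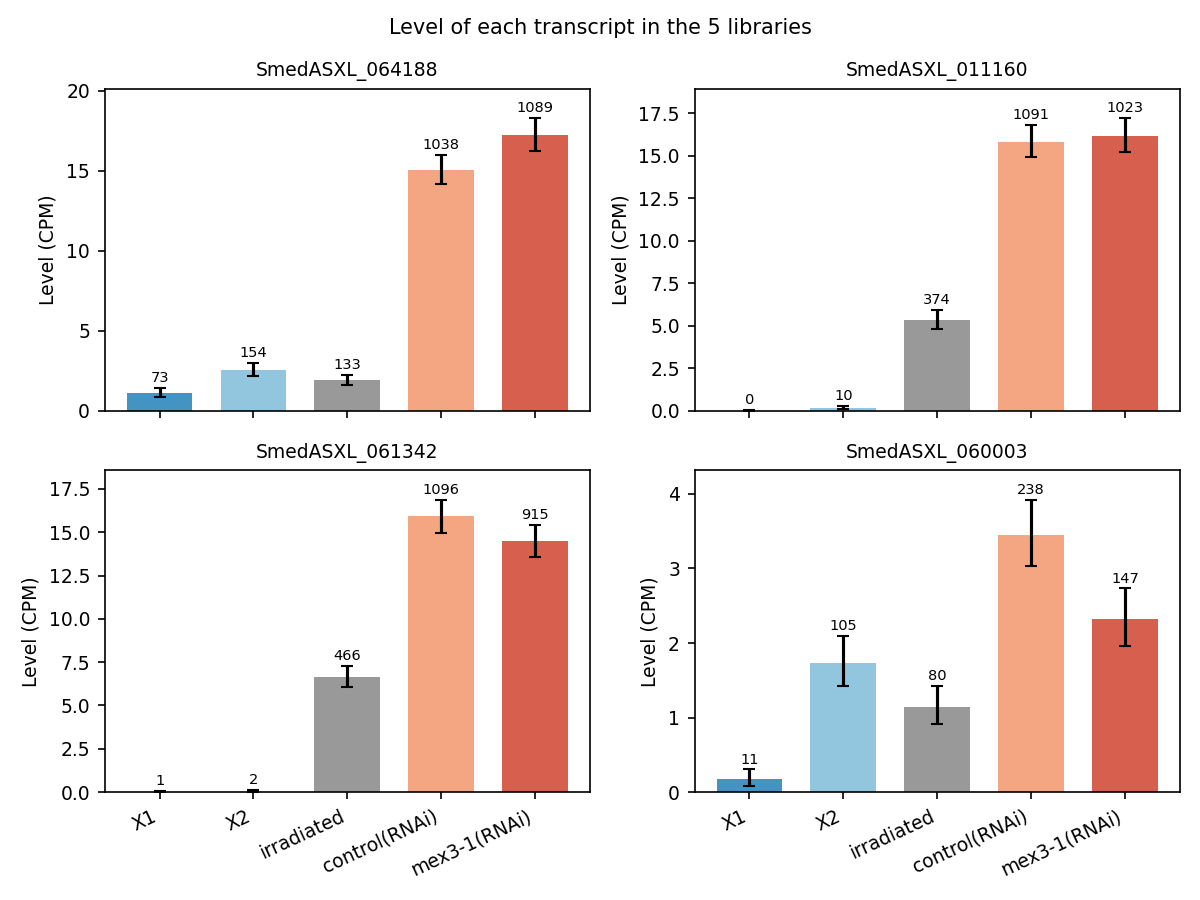
Level of each of the 4 transcripts (CPM, linear axis from 0, scaled per panel) in each of the 5 libraries. Bars are single libraries, error bars are 95% exact Poisson intervals of the reads, and the number above each bar is its reads. For a count of 0 the error bar ends at the limit of 3 reads instead. Both RNAi libraries are the highest in every panel, and the X1 and X2 bars are near 0 for SmedASXL_011160 and SmedASXL_061342.

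The 4 differed in the sorted fractions. X1 was at least 2-fold lower than irradiated animals for 2 of the 4, SmedASXL_011160 (log2 fold -2.67) and SmedASXL_061342 (-2.92), against 36.8% of all transcripts tested. SmedASXL_060003, at -0.88 (-1.03 to -0.66), became the third with a pseudocount of 0.1 CPM or with folds centred on their median. In X2, 2 of the 4 were at least 2-fold lower, SmedASXL_011160 at -2.45 and SmedASXL_061342 at -2.89, against 32.4% of all. Both shares over all include transcripts 2-fold or more higher in X1 or X2, which the choice kept out of the 4. For SmedASXL_064188 and SmedASXL_060003, X2 was slightly above irradiated animals instead, with log2 folds of 0.29 (0.05 to 0.52) and 0.35 (0.10 to 0.60). The median log2 fold of transcripts that reached 5 CPM in both libraries of a comparison was 0.31 for X2 over irradiated, 0.23 for X1 over irradiated and 0.09 for control over irradiated. Relative to these medians the X2 values of the pair became -0.02 and 0.04, so no direction can be given for X2, while their X1 values were -0.68 and -1.10. "Outside X2" therefore means no excess over irradiated animals for this pair, not absence from X2, where they had 154 and 105 reads.

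X2 over X1 sets the sorted fractions directly against each other, a ratio that did not enter the choice although both libraries did. Transcripts were tested here if X1 or X2 reached 1 CPM, which 2 of the 4, SmedASXL_011160 and SmedASXL_061342, did not. Of SmedASXL_064188 and SmedASXL_060003, only the latter passed 2-fold toward X2 (2.34-fold, 2.02 to 2.60), against 13.8% of all transcripts tested. SmedASXL_064188 was 1.67-fold higher (1.40 to 1.97). SmedASXL_011160 had 10 reads in X2 and 0 in X1, with a fold of CPM + 1 of 1.17 (lower bound 1.06). SmedASXL_061342, with 2 reads and 1, gave a fold of 1.02 (0.96 to 1.05), so its fractions could not be ordered. The median log2 fold of the 4 was 0.48, beside 0.06 over all transcripts tested.

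Both RNAi libraries gave nearly the same total for the 4 transcripts, 50.3 CPM in control and 50.2 CPM in *mex3-1(RNAi)* animals, beside 15.1 CPM in irradiated animals, 4.48 CPM in X2 and 1.31 CPM in X1. None of the 4 was at least 1.5-fold lower in *mex3-1(RNAi)* than in control animals, against 1.96% of all transcripts tested, and here the choice itself set the bounds at 2-fold. *mex3-1(RNAi)* exceeded irradiated animals 2-fold or more for 3 of the 4, against 3.83% of all. The choice by control over irradiated and by *mex3-1(RNAi)* over control itself forced this ratio upward. The 3 of 4 therefore say nothing beyond the choice. The folds were 6.28 for SmedASXL_064188, 2.70 for SmedASXL_011160 and 2.02 for SmedASXL_061342, and 1.55 (1.31 to 1.82) for SmedASXL_060003. In order of level, *mex3-1(RNAi)* and control came first for all 4. They were not separable by counting for SmedASXL_011160, and they stood in opposite order for SmedASXL_064188 and for the other two. In SmedASXL_060003 the third place, X2, lay only just below *mex3-1(RNAi)*, which was 1.22 times higher (1.02 to 1.44).

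Set beside the 79 *mex3-1*-dependent transcripts outside the fractions, the 4 were expressed at modest levels. Their control levels were 3.46 to 15.9 CPM, and the 79 had a median of 31.1 CPM (2.18 to 1097). In *mex3-1(RNAi)* animals the 4 stood at 2.33 to 17.2 CPM and the 79 at a median of 2.39 CPM (0.142 to 123), a contrast that the choice by *mex3-1(RNAi)* over control itself sets up. The share of the control CPM left after irradiation was 12.6% to 41.9% for the 4, inside the 7.09% to 48.7% of the 79. SmedASXL_011160 and SmedASXL_061342 were the only transcripts of the 84 with under 0.2 CPM in both X1 and X2 but at least 5 CPM in irradiated animals. This depends on the cut, and with under 1 CPM in both fractions there were 3. Lower levels in sorted cells were common, since X1 was at least 2-fold below irradiated animals for 36.8% of all transcripts tested. None of the 4 was on the study's list of transcripts high in whole animals and low in X1 and X2, of which 39 of 66 were among the 84, all of them *mex3-1*-dependent. None was on its list of 199 transcripts most reduced by *mex3-1* knockdown either, which holds 78 of the 84. Both lists were drawn up with libraries analysed here.

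**Figure D3:**
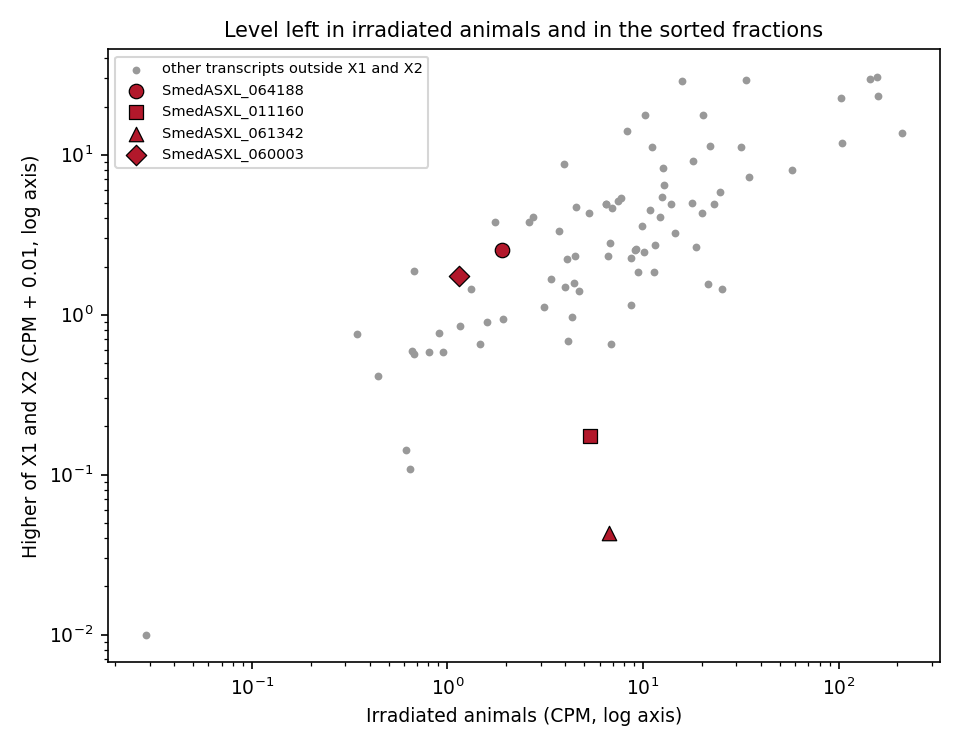
The 84 irradiation-sensitive transcripts outside X1 and X2, with the level in irradiated animals (CPM, log axis) against the higher of the X1 and X2 levels (CPM + 0.01, log axis). Each point is 1 transcript. SmedASXL_011160 and SmedASXL_061342 lie below the other transcripts with 5 CPM or more in irradiated animals. SmedASXL_064188 and SmedASXL_060003, at under 2 CPM in irradiated animals, lie close to other transcripts at that level.

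The number of transcripts found depends on where the threshold stands. All conditions other than the fall after irradiation were met by 13839 transcripts, of which 96 had control at least 1.5-fold above irradiated animals and 23 at least 1.7-fold. Nearest inside the threshold, a log2 fold of 1, were SmedASXL_060003 at 1.05, SmedASXL_061342 at 1.14 and SmedASXL_011160 at 1.41. The interval of SmedASXL_011160, 1.26 to 1.56, was clear of the threshold. Just outside it were SmedASXL_007777 at 0.94 (0.71 to 1.16), SmedASXL_015794 at 0.90 (0.72 to 1.07) and SmedASXL_018771 at 0.90 (0.83 to 0.96). In all, the intervals of 8 of the 92 transcripts between 1.5-fold and 2-fold reached the threshold, and those of 2 of the 4 inside reached below it. SmedASXL_007777 is unlike the 4 in its libraries, with 2.22 CPM in X1, 3.30 in X2, 1.25 in irradiated, 3.30 in control and 3.20 in *mex3-1(RNAi)* animals. SmedASXL_015794 and SmedASXL_018771 stood at 0.52 and 0.55 of control in *mex3-1(RNAi)* animals, near the other bound of the choice. Of the 96, 24 had under 1 CPM in both X1 and X2, and 79 were lower in *mex3-1(RNAi)* than in control animals by any amount, as were 2 of the 4. No share over all transcripts stands beside these counts. Over all transcripts tested, the median log2 fold of *mex3-1(RNAi)* over control was 0.01. The 96 were chosen for control levels above irradiated animals, and the same control library divides *mex3-1(RNAi)*, so the choice itself favours lower values. Among those of the 23 below the threshold, the highest in control was SmedASXL_006580, also named after its values were seen. Its levels of 1.71 CPM in X1, 0.743 in X2, 263 in irradiated, 464 in control and 463 in *mex3-1(RNAi)* animals had the shape of SmedASXL_061342 at a far higher level, and its fold of 1.77 (1.73 to 1.80) was below the threshold.

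**Figure D4:**
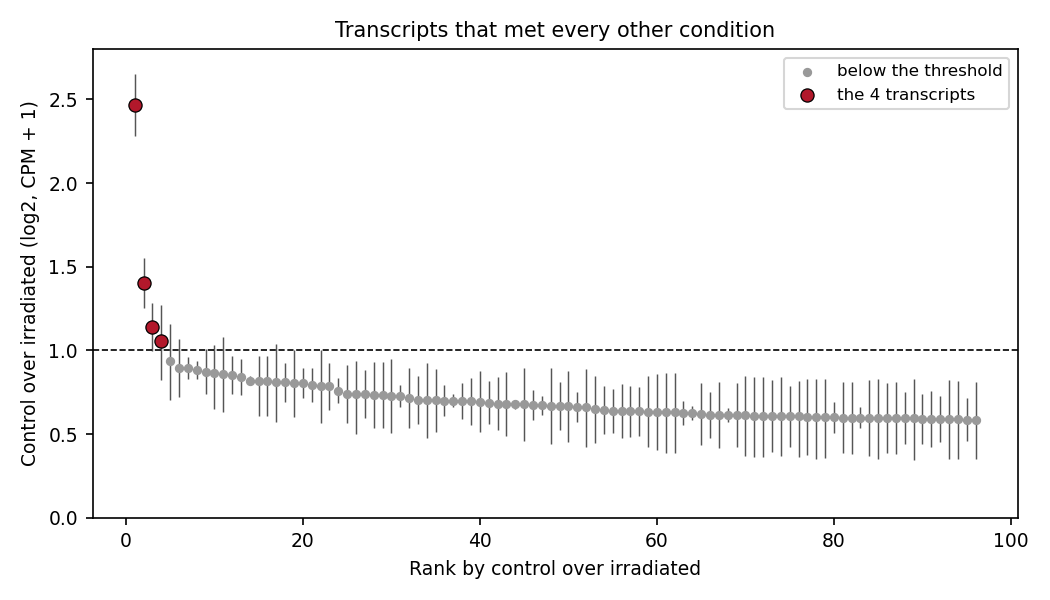
The 96 transcripts that met every other condition and were at least 1.5-fold higher in control than in irradiated animals, ranked by that fold (log2 of CPM + 1). Points are transcripts, vertical lines their 95% counting intervals, and the dashed line the 2-fold threshold. SmedASXL_064188 stands apart at a log2 fold of 2.47, and the intervals of SmedASXL_061342 and SmedASXL_060003 reach below the line.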

How the data were processed

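RNA-seq of 5 libraries was analysed, 1 per group. The authors mapped untrimmed single-end reads of 50 bases to the SmedASXL transcriptome with Bowtie2 2.2.4 and deposited a signal per transcript, CPM + 1. Taking off the 1 and dividing by each library's smallest step gave whole reads for 100% of values, within 0.01 read. Rows naming no transcript held at most 32 reads and were left out. The authors' tables of fold changes with adjusted p-values were not used, nor were 10 columns that hold libraries of other series.

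The 4 transcripts and the lists were chosen with earlier results of these data known. Folds are ratios of CPM + 1, and a transcript was counted in a comparison if 1 or both of its libraries reached 1 CPM. The median of the 4 for X2 over X1 also took in the 2 that did not reach it. With 1 library per group no test across animals was possible, so intervals are given, at 95%. For a count of 0 the upper limit is 3 reads. Transcripts named are the members, the 3 nearest below the threshold, markers that check the labels and, after their values were seen, SmedASXL_020150 and SmedASXL_006580. Alternatives were pseudocounts of 0.1 and 5 CPM, folds centred on their median, libraries without their 10 most abundant transcripts, changed fold thresholds, filters and bounds, and intervals beyond every threshold. The work was done in Python 3.11.15 with scipy 1.17.1 and numpy 2.4.6 for the intervals, pandas 2.3.3 for the tables and matplotlib 3.10.9 for the plots.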

Additional observations from a re-analysis of the deposited data

How the results depend on the processing

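The number of transcripts found was 14 with a pseudocount of 0.1 CPM (all 4 among them), 2 with a pseudocount of 5 CPM, 66 at fold thresholds of 1.5, 1 at 3, and 2 where the counting interval had to lie beyond every threshold. The 2 were SmedASXL_064188 and SmedASXL_011160 in both cases, and the 1 was SmedASXL_064188. Setting the median log2 fold to 0 also gave 4, of which 3 were the same and SmedASXL_060003 was lost. A control minimum of 5 CPM lost the same transcript. Leaving out the 10 most abundant transcripts, or asking for a *mex3-1(RNAi)* level within 1.5-fold of control, kept all 4.

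Over all transcripts, control over irradiated at 2-fold gave 987 and 258 with pseudocounts of 0.1 and 5 CPM, and 2105 and 252 at thresholds of 1.5 and 3, beside 633. X2 lower than irradiated gave 4328 with a pseudocount of 5 CPM, beside 6649. X2 higher than X1 gave 1141 with a pseudocount of 5 CPM, and 4489 and 1069 at thresholds of 1.5 and 3, beside 2496. *mex3-1(RNAi)* lower than control gave 590 and 240 with pseudocounts of 0.1 and 5 CPM, beside 383. Of the 4, 2 passed 2-fold from X1 to X2 with a pseudocount of 0.1 CPM and 0 with 5 CPM, in place of 1. The other 37 counts over all transcripts or members, and 10 counts of the 4 within a comparison, stayed within 1.5 times. Each group is 1 library, so counting error is the only error these data can show. No paired analysis was possible because each group holds 1 library.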
